A study of Mus musculus with 12 samples.

Results

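The MAP kinase phosphatases Dusp1, Dusp2, Dusp4, Dusp5, Dusp6, Dusp10 and Dusp16 and the mRNA-destabilizing proteins Zfp36, Zfp36l1 and Zfp36l2 were followed by RNA-seq in murine bone marrow-derived dendritic cells (BMDCs). Both families limit inflammatory signaling. The 10 genes were picked by name from 41709 genes in the count tables, with earlier results of these data known. All 10 passed the filter on low counts in each comparison. BMDCs were grown from bone marrow for 10 days in GM-CSF, and MHCII+ cells were isolated from the cultures. All animals carried 2 floxed alleles of Itgb2, the gene of the common β2 integrin chain CD18. CD18fl/fl mice lacked Cre (Cre-), whereas CD18CD11c cKO mice (Cre+) expressed Cre under control of the CD11c promoter, which is active in dendritic cells but also in other myeloid cells. Age and sex are not given in the sources used here. BMDCs of each genotype were left untreated or received 100 ng/mL LPS for 24 h, and every one of the 4 groups comprised 3 libraries. The methods describe the stimulation as overnight. Whether the replicates stem from separate mice or cultures is not stated, so p-values measure the spread between these libraries only.

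MAP kinases (ERK, JNK and p38) transmit signals of Toll-like receptors such as TLR4, the receptor of LPS. MAP kinase phosphatases shut them off by removing phosphate from both the threonine and the tyrosine of the activation loop. Their genes are themselves induced by the kinases they inactivate, which makes them feedback inhibitors. Zfp36 (tristetraprolin) and its relatives bind AU-rich elements in the 3′ untranslated region (UTR) of cytokine mRNAs and recruit the deadenylase complex that initiates decay. Both families are linked, since p38 activates the kinase Mapkapk2, which phosphorylates Zfp36 and thereby keeps it from destabilizing its targets.

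The AU-rich nonamer TTATTTATT, to which Zfp36 proteins bind, was searched in the 3′ UTR of 1 transcript per gene on the sense strand. It was found in 4 of the 10 members, Dusp1, Zfp36, Zfp36l1 and Zfp36l2, compared with 8.43% of all 20536 3′ UTRs searched. Dusp1 held 2 copies and the 3 Zfp36 genes 1 copy each. The sites are shown with their 10 neighboring bases on either side, since they mark the members whose own mRNA carries this nonamer. Capitals mark the nonamer, the sequence is written in the sense of the mRNA with T for U, and positions refer to GRCm39.
Dusp1, 3′ UTR, chr17:26725133-26725161, minus strand: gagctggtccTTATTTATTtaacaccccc
Dusp1, 3′ UTR, chr17:26724844-26724872, minus strand: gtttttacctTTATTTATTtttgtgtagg
Zfp36, 3′ UTR, chr7:28076376-28076404, minus strand: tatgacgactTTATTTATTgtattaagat
Zfp36l1, 3′ UTR, chr12:80154941-80154969, minus strand: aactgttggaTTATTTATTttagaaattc
Zfp36l2, 3′ UTR, chr17:84492342-84492370, minus strand: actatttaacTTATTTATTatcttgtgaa

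The shorter heptamer TATTTAT, which every nonamer contains, was found 3 times each in Dusp1, Zfp36, Zfp36l1 and Zfp36l2 and once in Dusp2, and occurred in 29.7% of all 3′ UTRs. Dusp4, Dusp5, Dusp6, Dusp10 and Dusp16 held neither of both. Their 3′ UTRs were between 1109 and 2416 bases long. Those of Dusp1, Dusp2 and Zfp36 had 690, 581 and 774 bases, and those of Zfp36l1 and Zfp36l2 had 1835 and 2049 bases. The median over all genes was 1102.5 bases. The pentamer ATTTA, which nonamer and heptamer both contain, occurred in all 10 members and in 68.1% of all 3′ UTRs.

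Promoters are given for the members in which a complete response element lies upstream of the start site. RefSeq promoter entries of GRCm38.p6, each spanning 250 bases before to 50 after the start site, were matched by symbol for 8 of the 10 members, not for Dusp4 and Zfp36l2. Both strands were searched. The cAMP response element TGACGTCA was present in the Dusp1 promoter and in 1.79% of 32851 promoters. Its shorter part TGACG, present in 20.8% of all promoters, also lay upstream in Dusp5 and Dusp16 and overlapped the complete element in Dusp1. CArG boxes, the binding motif of serum response factor, were found in the promoters of Dusp5 (2 boxes) and Zfp36 (1 box) and in 1.63% of all promoters. The AP-1 motif TGANTCA occurred in Zfp36l1 and in 7.81% of all promoters. No member held the NF-κB motif searched, which 8.46% of the promoters did. Below, the bases from -160 to -41 of these promoters are printed on the strand of the gene, with the complete elements in capitals.
Dusp1, chr17:26508513-26508632, minus strand: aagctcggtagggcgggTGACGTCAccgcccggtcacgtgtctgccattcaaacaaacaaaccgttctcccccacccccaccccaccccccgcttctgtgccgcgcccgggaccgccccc
Dusp5, chr19:53528985-53529104, plus strand: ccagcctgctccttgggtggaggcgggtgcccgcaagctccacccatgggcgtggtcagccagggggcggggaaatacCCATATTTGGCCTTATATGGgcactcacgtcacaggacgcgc
Zfp36, chr7:28379269-28379388, minus strand: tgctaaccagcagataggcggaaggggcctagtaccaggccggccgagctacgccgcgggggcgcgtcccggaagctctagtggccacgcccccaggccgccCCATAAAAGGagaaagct
Zfp36l1, chr12:80113054-80113173, minus strand: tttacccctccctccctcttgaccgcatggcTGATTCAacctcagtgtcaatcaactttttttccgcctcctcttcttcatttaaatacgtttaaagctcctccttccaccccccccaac

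Libraries held between 29689149 and 34037178 total gene reads, the number of reads assigned to any gene. Levels are given as CPM, counts per library total scaled by TMM factors over all 12 libraries. The floor of detection was set at 3 reads, between 0.0881 and 0.101 CPM before TMM scaling, and covers counting error only, since PCR products were not told apart by molecular identifiers. Itgb2 served as check of the labels. It amounted to 382, 420 and 379 CPM in unstimulated CD18fl/fl BMDCs and to 120.5, 163 and 189.5 CPM in unstimulated CD18CD11c cKO BMDCs. After LPS treatment, it measured 167, 171 and 266.5 CPM in CD18fl/fl and 114, 89.7 and 119 CPM in CD18CD11c cKO BMDCs. Thus all CD18CD11c cKO libraries were below all CD18fl/fl libraries of the same treatment, yet Itgb2 reads were still counted. The paper describes a deletion of exon 3 alone, whereas reads were counted over the whole gene. These values therefore do not tell how much intact Itgb2 mRNA remained.
Libraries of the same replicate number deviated together from their group means (correlation between 0.265 and 0.716 in 12 pairs), whereas replicate 3 deviated opposite to replicates 1 and 2 in every group (-0.571 to -0.321). Replicates 1 and 2 of different groups were also positively correlated (0.154 to 0.334), which overlaps the range of same-numbered libraries, and centering on 3 libraries in part forces such opposite signs. Therefore each comparison was fitted both ways, unpaired and with same-numbered libraries treated as pairs (the block), and both values are given where the call differs. Marker genes of dendritic cells, among them Itgax, Flt3 and H2-Ab1, summed to between 12830 and 33360 CPM. Each of the 10 exceeded the floor in at least 1 library per group. By group medians, H2-Ab1, H2-Aa, Cd74 and Ccr7 made up most of these sums, and cells had been isolated by MHCII. The sums therefore do not tell how pure the dendritic cells were. Medians of Itgax, Flt3, Cd74, Cd209a and Irf4 were lower after LPS in both genotypes, those of Zbtb46 and H2-Aa higher. Median Cd209a was then close to or under the floor. Macrophage markers (10 genes) summed to between 1779 and 2316 CPM without and between 1175 and 1968 CPM with LPS. Markers of B cells (5 genes) summed to at most 2.54 CPM in replicate 3 and to between 8.64 and 137.8 CPM in replicates 1 and 2, and those of mast cells and basophils (10 genes) to at least 95.3 CPM in replicate 3 and at most 52.8 CPM in the others. Neutrophil markers (10 genes) ranged from 10.7 to 1332 CPM, those of T and NK cells (7 genes) from 1.57 to 35.2 CPM. Cma1 was at 0 in all groups but LPS-treated CD18CD11c cKO, Retnlg, Mpo and Elane in that group, Klrb1c in both LPS-treated groups and Ncr1 in LPS-treated CD18CD11c cKO BMDCs.

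Levels of the members were compared per length, as CPM per kb of exon. In unstimulated CD18fl/fl BMDCs, Zfp36 ranked highest with 89.5 ± 33.5 CPM per kb (SD, n = 3). It was followed by Dusp1 with 64.8 ± 38.0, Zfp36l1 with 52.0 ± 8.18, Dusp5 with 44.1 ± 26.9, Zfp36l2 with 29.5 ± 8.74 and Dusp6 with 19.8 ± 5.52 CPM per kb. The libraries of each neighbor in this order overlapped. Clearly below, with no overlap to Dusp6, came Dusp16 with 4.32 ± 0.860, and below it, again without overlap, Dusp4 with 1.96 ± 0.356 CPM per kb. Dusp2 (1.04 ± 0.817) and Dusp10 (0.489 ± 0.139) were the least expressed members. After LPS, the order changed. Dusp1 (139.5 ± 88.9), Dusp5 (80.8 ± 42.8) and Zfp36 (63.4 ± 5.84) overlapped at the top. Zfp36l1 (26.2 ± 16.1) came next, without overlap to Zfp36. It did overlap Dusp1 and Dusp5, which had 39.5 and 33.2 CPM per kb in replicate 3, compared with 44.8 for Zfp36l1. Dusp16 (12.3 ± 1.83) followed without overlap to Zfp36l1. In LPS-treated CD18CD11c cKO BMDCs the same 5 genes led in the same order, with Dusp1 at 88.9 ± 52.4, Dusp5 at 64.6 ± 19.4 and Zfp36 at 38.4 ± 5.88 CPM per kb.

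**Figure D1:**
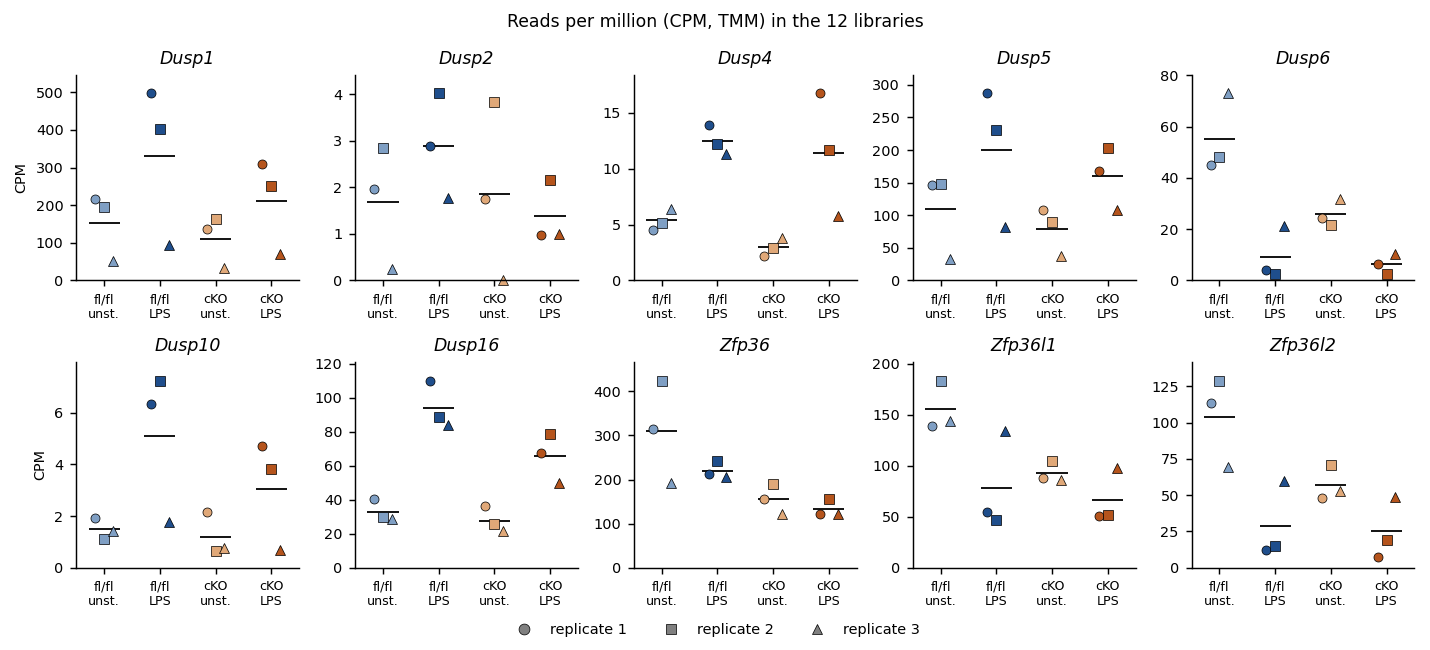
CPM of each member in the 12 libraries, with groups on the x axis, the replicate number as symbol and the group mean as line. Dusp1 and Dusp5 were lowest in replicate 3 of every group, and Dusp6, Zfp36l1 and Zfp36l2 were highest in replicate 3 among the LPS-treated libraries of each genotype.

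The first question was how LPS changed each member. In CD18fl/fl BMDCs, the phosphatases Dusp1, Dusp4, Dusp5 and Dusp16 rose between 1.98-fold and 2.88-fold when replicates were blocked, and Dusp6 fell by 3.15 on the log2 scale. In CD18CD11c cKO BMDCs the same 5 genes passed the threshold in the same directions. Without the block, edgeR called 1 of 10 members in CD18fl/fl (Dusp16), as were 3.89% of 12744 genes, and 0 of 10 in CD18CD11c cKO BMDCs, as were 3.99% of 12687 genes. In the latter, 4 members and 2685 genes had an unadjusted p under 0.05 in edgeR. DESeq2 without the block called 3 members there (Dusp4, Dusp6 and Dusp16), beside 1531 of 19186 genes. In CD18fl/fl BMDCs, DESeq2 without the block called 5 members (Dusp4, Dusp6, Dusp10, Dusp16 and Zfp36l2), beside 1794 of 18927 genes.
With the block, 4 members were called higher in CD18fl/fl (6.33% of all genes) and 1 lower (6.43%), and in CD18CD11c cKO BMDCs also 4 higher (10.2%) and 1 lower (9.93%). The median log2 fold change of the 7 phosphatases with the block was 1.21 in CD18fl/fl and 1.07 in CD18CD11c cKO BMDCs, that of the 3 Zfp36 genes -1.14 and -0.59, beside -0.03 and -0.01 over all genes. When library size alone replaced TMM, the median over all genes with the block was -0.36 in CD18fl/fl and -0.23 in CD18CD11c cKO BMDCs, and no member changed its direction. The split of all calls then moved from 807 higher and 820 lower to 476 and 1145 in CD18fl/fl, and from 1300 and 1260 to 884 and 1864 in CD18CD11c cKO BMDCs. Under that scaling, the calls of Dusp1, Dusp4 and Dusp5 in CD18fl/fl and of Dusp4 in CD18CD11c cKO BMDCs were lost and Zfp36l2 was called in the latter. With an offset for exon length the block lost Dusp5 in CD18fl/fl BMDCs.

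Dusp1 inactivates mainly p38 and JNK in the nucleus and is the best-known brake on cytokine production after LPS. It measured 216, 194.5 and 50.3 CPM in unstimulated and 497.5, 402 and 93.7 CPM in LPS-treated CD18fl/fl BMDCs (replicates 1 to 3). Values of 138, 162 and 33.1 CPM without and 310, 251.5 and 71.4 CPM with LPS were found in CD18CD11c cKO BMDCs. Hence, Dusp1 was higher after LPS in each same-numbered pair of both genotypes, but groups overlapped, since replicate 3 had the lowest level throughout. The log2 fold change was 1.05 ± 0.21 (SE, n = 3 per group, adjusted p = 0.0283 by edgeR with the block) in CD18fl/fl and 0.92 ± 0.20 (adjusted p = 0.02) in CD18CD11c cKO BMDCs. Without the block it was not called (adjusted p = 0.389 and 0.521 by edgeR).

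Dusp5, a nuclear phosphatase specific for ERK, followed the same course. It rose from 146, 148 and 32.4 CPM to 287, 230 and 82.1 CPM in CD18fl/fl, and from 108, 89.2 and 37.7 CPM to 168, 203 and 108 CPM in CD18CD11c cKO BMDCs. As with Dusp1, replicate 3 was lowest in each group and every pair went up. In edgeR with the block, the log2 fold changes were 0.99 ± 0.24 (adjusted p = 0.0471) and 1.07 ± 0.23 (adjusted p = 0.0191), compared with adjusted p = 0.456 and 0.236 without it.

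Dusp16, a phosphatase of JNK and p38 in the cytoplasm, was called with and without the block in CD18fl/fl BMDCs. Its level amounted to 40.5, 30.02 and 28.5 CPM in unstimulated and 110, 88.8 and 83.8 CPM in LPS-treated CD18fl/fl BMDCs, without overlap. It increased in CD18CD11c cKO BMDCs from 36.2, 25.6 and 21.3 CPM to 67.7, 78.8 and 49.9 CPM, also without overlap. In CD18fl/fl, the log2 fold change was 1.52 ± 0.25 (adjusted p = 0.0309 by edgeR without the block) and 1.53 ± 0.21 with it (adjusted p = 0.0103). The call without the block was lost on leaving out any library except LPS-treated replicate 3, with adjusted p between 0.05 and 0.167, whereas without LPS-treated replicate 3 the adjusted p was 0.00906. For CD18CD11c cKO BMDCs, Dusp16 was called with the block (1.20 ± 0.20, adjusted p = 0.00883), not without it (adjusted p = 0.0648, or 0.0423 without LPS-treated replicate 3).

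Dusp4, which acts on ERK in the nucleus, was scarce but responded in all libraries. Values were 4.52, 5.17 and 6.44 CPM without and 13.9, 12.2 and 11.4 CPM with LPS in CD18fl/fl, and 2.21, 2.87 and 3.82 CPM without and 16.8, 11.7 and 5.79 CPM with LPS in CD18CD11c cKO BMDCs. In both genotypes, all LPS-treated libraries were above all unstimulated ones, as for Dusp16. Of all genes tested, 13.6% did so in CD18fl/fl and 14.8% in CD18CD11c cKO BMDCs. With the block, edgeR gave log2 fold changes of 1.23 ± 0.28 (adjusted p = 0.0409) and 1.80 ± 0.47 (adjusted p = 0.0376). Without it, the adjusted p was 0.0597 and 0.0697, respectively.

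Dusp10 and Dusp2 were close to the lower end of what these libraries resolve. Dusp10, a phosphatase of p38 and JNK, was counted with 19 to 197 reads per library. In CD18fl/fl BMDCs it measured 1.94, 1.103 and 1.42 CPM without and 6.33, 7.25 and 1.78 CPM with LPS, and in CD18CD11c cKO BMDCs 2.17, 0.634 and 0.752 CPM without and 4.70, 3.82 and 0.680 CPM with LPS. Levels were thus higher in replicates 1 and 2 after LPS, while replicate 3 hardly differed between treatments. In edgeR, neither fit called Dusp10 in either genotype, with log2 fold changes of 1.60 ± 0.56 (adjusted p = 0.108) and 1.14 ± 0.71 (adjusted p = 0.297) with the block. DESeq2 called it in CD18fl/fl BMDCs with and without the block. Dusp2, an inducible nuclear phosphatase of immune cells, had between 0 and 115 reads. It ranged from 0.241 to 2.83 CPM without and from 1.78 to 4.02 CPM with LPS in CD18fl/fl BMDCs. The range in CD18CD11c cKO BMDCs, where unstimulated replicate 3 had 0 reads, was 0 to 3.84 CPM without and 0.972 to 2.16 CPM with LPS. The direction of Dusp2 in CD18CD11c cKO BMDCs turned with the block, from -0.49 ± 1.39 to 0.42 ± 1.42, so that none can be given.

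Dusp6, the cytoplasmic phosphatase of ERK whose own transcription depends on ERK, moved opposite to the other phosphatases. It reached 44.9, 48.1 and 73.1 CPM in unstimulated CD18fl/fl BMDCs and 3.92, 2.60 and 21.2 CPM after LPS. Values in CD18CD11c cKO BMDCs were 24.2, 21.7 and 31.9 CPM without and 6.36, 2.47 and 10.5 CPM with LPS. Every LPS-treated library was below every unstimulated library of its genotype, as in 15.9% of genes tested in CD18fl/fl and 13.4% in CD18CD11c cKO. Replicate 3 was highest in all 4 groups. With the block, Dusp6 fell by 3.15 ± 0.51 on the log2 scale in CD18fl/fl (adjusted p = 0.0165 by edgeR) and by 2.23 ± 0.34 in CD18CD11c cKO BMDCs (adjusted p = 0.00659). Without it, the adjusted p was 0.116 and 0.0781.

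No gene of the Zfp36 family passed edgeR's test for LPS with or without the block. DESeq2 called Zfp36l2 without and Zfp36l1 and Zfp36l2 with the block in CD18fl/fl, and Zfp36l2 with the block in CD18CD11c cKO BMDCs. Zfp36 itself measured 315, 425 and 192 CPM in unstimulated and 212, 243 and 205 CPM in LPS-treated CD18fl/fl BMDCs, and 155, 190 and 121 CPM without and 121, 157 and 122 CPM with LPS in CD18CD11c cKO BMDCs. Treated and untreated libraries overlapped in both genotypes. The log2 fold changes with the block were -0.42 ± 0.26 (adjusted p = 0.299 by edgeR) and -0.26 ± 0.18 (adjusted p = 0.361).
Zfp36l1, which also restrains cell cycle genes in lymphocyte precursors, amounted to 139, 183.5 and 143 CPM without and 54.7, 46.8 and 134 CPM with LPS in CD18fl/fl BMDCs. Corresponding CD18CD11c cKO BMDCs had 87.8, 105 and 86.1 CPM without and 51.1, 51.2 and 98.0 CPM with LPS. Replicates 1 and 2 were therefore lower after LPS, whereas replicate 3 hardly differed or was higher. Zfp36l2, the third relative, followed a similar course, with 113, 129 and 69.6 CPM without and 12.2, 15.0 and 59.9 CPM with LPS in CD18fl/fl, and 48.1, 70.7 and 52.6 CPM without and 7.62, 19.2 and 49.0 CPM with LPS in CD18CD11c cKO BMDCs. Neither gene was called with the block in edgeR (adjusted p = 0.104 and 0.0775 in CD18fl/fl, 0.181 and 0.0592 in CD18CD11c cKO BMDCs). In CD18fl/fl BMDCs, all LPS-treated libraries of both genes were below all unstimulated ones, as in 15.9% of 12744 genes. In CD18CD11c cKO BMDCs, treated and untreated libraries of both genes overlapped.

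These results depended on replicate 3. With replicates 1 and 2 alone, 9 of 10 members passed the threshold in CD18fl/fl BMDCs, all except Dusp2, as did 47.5% of 12924 genes. The log2 fold change of Zfp36l2 was then -3.16 ± 0.19 (adjusted p = 3.12e-07 by edgeR, 2 libraries per group), that of Zfp36l1 -1.67 ± 0.19 (adjusted p = 2.52e-05) and that of Zfp36 -0.70 ± 0.19 (adjusted p = 0.00896). Of the members, 6 of 10 passed in CD18CD11c cKO BMDCs (15.9% of 12872 genes), with Zfp36l2 at -2.26 ± 0.46 and Zfp36l1 at -1.02 ± 0.21. Leaving out only LPS-treated replicate 3 of CD18fl/fl gave 6 called members, among them Zfp36l1 and Zfp36l2, beside 3268 of 13206 genes. In the same-numbered pairs, 6 members rose in all 3 pairs of CD18fl/fl (as did 25.5% of genes tested) and 3 fell in all (29.2%), compared with 4 (30.1%) and 2 (27.4%) in CD18CD11c cKO BMDCs. The lower B cell and higher mast cell and basophil markers of replicate 3 stood beside these differences. B cell markers were also lower after LPS in replicates 1 and 2 (30.9 to 8.64 and 95.0 to 21.0 CPM in CD18fl/fl, 110.6 to 18.7 and 137.8 to 41.4 CPM in CD18CD11c cKO BMDCs), but not in replicate 3. T and NK cell markers were lower after LPS in every pair, from 23.7 to 1.57 CPM in CD18fl/fl replicate 1 and from 35.2 to 4.25 CPM in CD18CD11c cKO replicate 1. The part of these markers was not tested. Since whole populations were lysed, fewer cells of a type cannot be told apart from less RNA per cell.

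**Figure D2:**
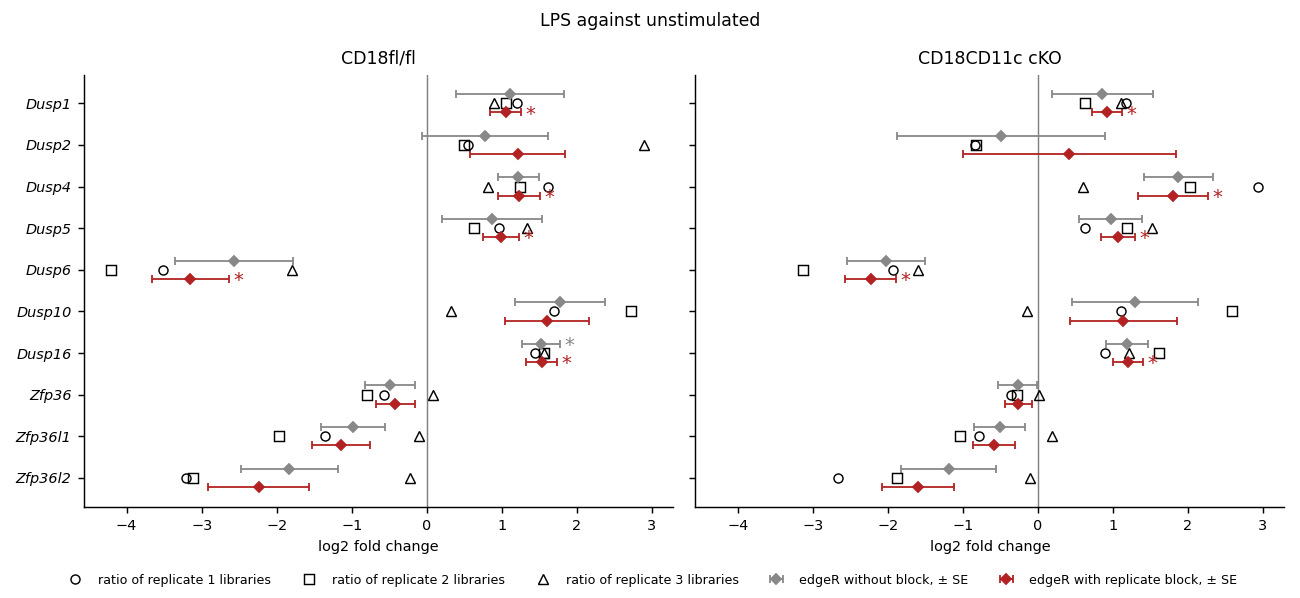
Log2 fold change of LPS-treated against unstimulated BMDCs for each member, in CD18fl/fl (left) and CD18CD11c cKO (right). Diamonds with bars give edgeR estimates ± SE, asterisks an adjusted p under 0.05, and open symbols the ratio of same-numbered libraries (no ratio for Dusp2 in replicate 3 of CD18CD11c cKO, with 0 reads). Triangles of replicate 3 lie near 0 for all 3 Zfp36 genes in both genotypes.

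Next, both genotypes were compared in the same state. Without stimulation, Dusp6 and the complete Zfp36 family were called lower in CD18CD11c cKO BMDCs, between 1.60-fold and 2.03-fold, when replicates were blocked. An offset for exon length lost the call of Zfp36l2, and replicates 1 and 2 alone that of Zfp36l1. With the block, 0 members were called higher and 4 lower, beside 8.16% of 12876 genes called lower. Without the block, 0 members and 0.0% of all genes were called by edgeR. At an unadjusted p under 0.05 it found 4 members and 2159 genes. DESeq2 without the block called 1 member, Dusp6, beside 538 of 18793 genes. In 7 members all 3 same-numbered pairs were lower in CD18CD11c cKO, as in 33.9% of all genes, and in 4 members (Dusp4, Dusp6, Zfp36 and Zfp36l1) all CD18CD11c cKO libraries were below all CD18fl/fl libraries, as in 13.1% of all genes.
Dusp6 was 2.03-fold lower, with a log2 fold change of -1.02 ± 0.14 (adjusted p = 0.00455 by edgeR with the block, 0.15 without). Its highest CD18CD11c cKO library had 31.9 CPM and its lowest CD18fl/fl library 44.9 CPM. Zfp36 was 1.86-fold lower (-0.90 ± 0.15, adjusted p = 0.00901 with and 0.243 without the block), with 121 to 190 CPM compared with 192 to 425 CPM. Thus even the lowest CD18fl/fl library, replicate 3, exceeded all CD18CD11c cKO libraries. Zfp36l1 was 1.60-fold lower (-0.68 ± 0.13, adjusted p = 0.0139 and 0.19) and Zfp36l2 1.72-fold lower (-0.78 ± 0.19, adjusted p = 0.028 and 0.249). Of these, only Zfp36l2 overlapped between genotypes, with 48.1 to 70.7 CPM in CD18CD11c cKO and 69.6 to 129 CPM in CD18fl/fl BMDCs.
Dusp4 did not overlap (2.21 to 3.82 compared with 4.52 to 6.44 CPM), but did not pass the test (-0.82 ± 0.30, adjusted p = 0.0917 with the block). Dusp1 (-0.45 ± 0.14, adjusted p = 0.0633 with the block) and Dusp16 (-0.21 ± 0.14, adjusted p = 0.322) were lower in all pairs without passing. Dusp5, Dusp10 and Dusp2 did not have 1 direction in all pairs.

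After LPS, Zfp36 and Dusp1 were called lower in CD18CD11c cKO BMDCs with the block, that is 2 of 10 members beside 3.16% of 12441 genes called lower, and 0 members higher. Without the block, 0 members and 0.0% of genes were called by edgeR. At an unadjusted p under 0.05 it found 1 member and 1212 genes, and DESeq2 without the block called 0 members. Zfp36 amounted to 121, 157 and 122 CPM in CD18CD11c cKO compared with 212, 243 and 205 CPM in CD18fl/fl BMDCs, with no overlap. The log2 fold change was -0.76 ± 0.14 (adjusted p = 0.0198 with and 0.422 without the block). The log2 fold change of Dusp1 was -0.61 ± 0.14 (adjusted p = 0.0397 with and 0.81 without the block), and it was lower in all 3 pairs although groups overlapped. With replicates 1 and 2 alone, 0 members were called.
Dusp16 was the second member without overlap (49.9 to 78.8 compared with 83.8 to 110 CPM), a pattern shown by 8.09% of all genes, and missed the threshold with the block (-0.57 ± 0.17, adjusted p = 0.0788). In all, 5 members were lower in all 3 pairs, as were 26.1% of all genes. Dusp4, Dusp5, Dusp6, Zfp36l1 and Zfp36l2 went up in at least 1 pair and down in others, and their log2 fold changes with the block lay between -0.27 and -0.17. Marker genes of macrophages (10 genes) summed to between 1175 and 1265 CPM in LPS-treated CD18CD11c cKO and between 1500 and 1968 CPM in LPS-treated CD18fl/fl BMDCs, and their part in these differences was not tested.

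Zfp36 was hence the member called lower with the block in both states. Scaling had a bearing on the size of these differences. With library size alone in place of TMM and without the block, the median over all genes moved from -0.05 to -0.44 before and from -0.11 to -0.37 after stimulation, while that of the members moved from -0.56 to -0.96 and from -0.55 to -0.85. With the block, all calls shifted from 1555 higher and 1051 lower to 701 and 3882 in unstimulated BMDCs, and from 869 and 393 to 590 and 2052 after LPS. Both comparisons of the genotypes share their libraries with the LPS comparisons, so they are not independent of them.

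**Figure D3:**
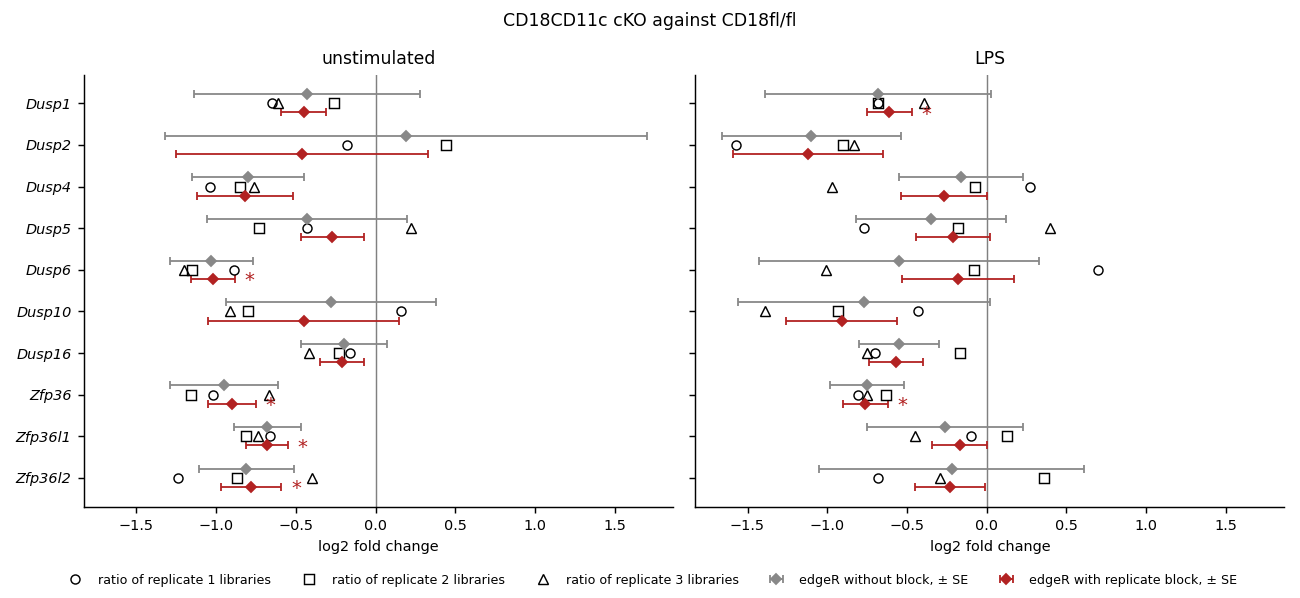
Log2 fold change of CD18CD11c cKO against CD18fl/fl BMDCs for each member, unstimulated (left) and after LPS (right). Symbols are as in the plot of LPS responses. Dusp6 and the 3 Zfp36 genes carry an asterisk without stimulation, Dusp1 and Zfp36 after LPS, all with the block.

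It was then tested whether the response to LPS itself depended on CD18. For no member did the interaction of genotype and LPS pass the threshold, neither without nor with the block (adjusted p = 1 for each by edgeR), and 0.0% of 13752 genes passed in either fit. At an unadjusted p under 0.05, edgeR found 97 genes without and 272 with the block, while DESeq2 called 1 gene without and 130 genes with the block, among them 0 members. With the block, the interaction amounted to 0.81 ± 0.62 for Dusp6, 0.76 ± 0.77 for Zfp36l2, 0.71 ± 0.53 for Dusp4 and 0.55 ± 0.45 for Zfp36l1 on the log2 scale, and to -0.08 ± 0.24 for Dusp1 and 0.21 ± 0.37 for Dusp5. For Dusp6, a positive value means a smaller decrease in CD18CD11c cKO BMDCs, which had started from a lower level (25.9 CPM compared with 55.3 CPM on average). These errors leave room for differences in either direction.

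The make-up of each family was compared as share of its summed CPM per kb. Within the Zfp36 family, Zfp36 accounted for 53.6%, 55.6% and 45.0% without and 73.7%, 77.9% and 48.9% with LPS in CD18fl/fl BMDCs. Shares in CD18CD11c cKO BMDCs were 51.0%, 49.8% and 44.3% without and 64.4%, 66.7% and 42.9% with LPS. Thus Zfp36 made up a larger part after LPS in replicates 1 and 2, but not clearly in replicate 3. The mean difference was 15.5 percentage points in CD18fl/fl (exact permutation test, two-sided, p = 0.3) and 9.62 in CD18CD11c cKO BMDCs (p = 0.4 by the same exact test), where 3 against 3 libraries cannot give a p below 0.1. Zfp36l2 dropped from 17.2% ± 1.55 to 7.65% ± 5.55 (SD, n = 3, exact permutation p = 0.1) in CD18fl/fl BMDCs, without overlap. Between genotypes, the share of Zfp36 differed by -3.01 points without (exact permutation p = 0.5) and by -8.85 points with LPS (exact permutation p = 0.5). This test does not pair the libraries, and the share was lower in CD18CD11c cKO in all 3 same-numbered pairs of either state.
Among the phosphatases, Dusp1 had the largest share in replicates 1 and 2 of every group. It took 52.0%, 49.1% and 31.6% in unstimulated CD18fl/fl BMDCs and 59.8%, 59.6% and 40.7% after LPS. Dusp6 took 9.16%, 10.3% and 38.9% without, but 0.400%, 0.328% and 7.80% with LPS. In CD18CD11c cKO BMDCs, the share of Dusp6 went from 7.35%, 6.51% and 25.3% to 1.04%, 0.429% and 4.30%. Summed over the 7 phosphatases, unstimulated CD18fl/fl BMDCs had 175, 167 and 67.1 CPM per kb and LPS-treated ones 351, 284 and 97.0, whereas the sum of the Zfp36 family went from 169, 220 and 123 to 82.9, 89.9 and 121 CPM per kb. In CD18CD11c cKO BMDCs, phosphatases summed to 118, 119 and 45.0 without and 218, 206 and 87.1 CPM per kb with LPS, and the Zfp36 family to 87.8, 110 and 78.5 without and 54.1, 67.7 and 81.7 CPM per kb with LPS.

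**Figure D4:**
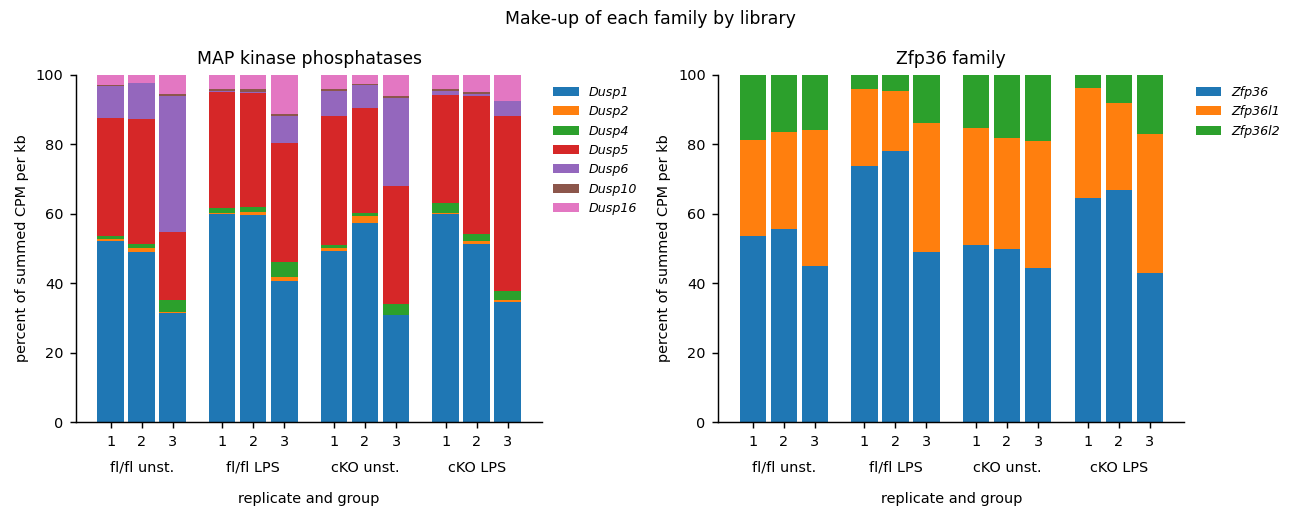
Share of each member in the summed CPM per kb of its family, in percent, for the 12 libraries grouped by genotype and treatment with replicates 1 to 3 side by side. Dusp6 nearly vanishes from LPS-treated replicates 1 and 2, and Zfp36l2 shrinks in the same libraries, while replicate 3 keeps a larger part of both.

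Which members resembled each other was described by the mean absolute difference of their log2 CPM over the 12 libraries, each centered on its own mean. Dusp1 and Dusp5 were each other's nearest member, at 0.34, as were Dusp4 and Dusp16, at 0.38. Zfp36 and Zfp36l1 were nearest to each other at 0.50, and Zfp36l2 was nearest to Zfp36l1 at 0.54. Distances were larger for Dusp10 (nearest to Dusp16 at 0.57), Dusp6 (nearest to Zfp36l2 at 0.65) and Dusp2 (nearest to Dusp5 at 0.79). These distances also depend on how much a gene varied. The mean absolute deviation from the own mean was 0.42 for Zfp36, which thus lay farther from Zfp36l1 than from a constant level. It was 0.55 for Zfp36l1, 0.96 for Dusp10, 1.43 for Dusp6 and 1.23 for Dusp2. Among all 13751 other genes, Stat4 (0.20) and Mreg (0.21) were closest to Dusp1, Map3k14 (0.16) and Nuak2 (0.18) to Dusp5, Inpp5b (0.15) and Sowahc (0.18) to Dusp16, and Zdhhc18 (0.22) and Ttc7b (0.25) to Dusp4. Svil (0.36) and Nfam1 (0.41) came closest to Dusp6, Kansl1 (0.13) and Shisa5 (0.17) to Zfp36, Mink1 (0.13) and Map3k11 (0.14) to Zfp36l1, and Gm7694 and Cln6 (both 0.29) to Zfp36l2. Stat4 is a transcription factor of IL-12 signaling, and Map3k14 (NIK) a kinase of the noncanonical NF-κB pathway. These partners were picked from all genes tested, and libraries of 1 group or replicate number are alike, so that no p is given.

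The remaining MAP kinase phosphatases were low. Dusp7, which acts on ERK in the cytoplasm, measured 3.27, 4.84 and 7.56 CPM without and 0.482, 0.446 and 3.63 CPM with LPS in CD18fl/fl BMDCs, a course like that of Dusp6, and was not called (-2.35 ± 0.58, adjusted p = 0.0505 by edgeR with the block). Dusp8 had between 0 and 11 reads and Dusp9 between 0 and 16 reads per library. Of 14 atypical dual specificity phosphatases, 10 were tested in CD18fl/fl and 9 in CD18CD11c cKO BMDCs. In both genotypes, 1 rose (Dusp14) and 1 fell (Dusp3, a phosphatase of ERK and JNK) with LPS when replicates were blocked. Over all genes, the block called 6.33% higher and 6.43% lower with LPS in CD18fl/fl BMDCs. In CD18CD11c cKO BMDCs it called 10.2% and 9.93%, and these shares also apply to the gene lists below. Dusp14 measured 4.66, 3.74 and 0.481 CPM without and 22.4, 23.4 and 10.1 CPM with LPS in CD18fl/fl (3.01 ± 0.46, adjusted p = 0.0146), and 2.53, 2.47 and 0.665 without and 15.3, 16.1 and 13.0 CPM with LPS in CD18CD11c cKO BMDCs (3.09 ± 0.42, adjusted p = 0.00469 by edgeR with the block). Between genotypes, 3 of 10 atypical phosphatases (Dusp12, Dusp19 and Dusp22) were called higher in CD18CD11c cKO BMDCs and 0 lower, with the block, in both states. Over all genes, the block called 1555 of 12876 higher without and 869 of 12441 higher with LPS.

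Of 7 MAP kinases tested, the substrates of the phosphatases, 1 fell in both genotypes with and without the block. This was Mapk14, which encodes p38α, the main substrate of Dusp1. It amounted to between 76.4 and 84.8 CPM without and between 26.3 and 35.02 CPM with LPS in CD18fl/fl BMDCs (-1.45 and adjusted p = 0.0239 by edgeR without the block), and to 67.2, 71.3 and 62.8 CPM without and 20.5, 32.8 and 28.9 CPM with LPS in CD18CD11c cKO BMDCs (-1.34, adjusted p = 0.0418). Treated and untreated libraries did not overlap. Calls without the block were fragile, since in CD18fl/fl BMDCs 0 genes in all were called on leaving out replicate 1 or 2 of either treatment. Of 7 MAP kinase kinases, 0 were called in CD18fl/fl, whereas with the block Map2k1 rose and Map2k6, an activator of p38, fell in CD18CD11c cKO BMDCs (-2.78 ± 0.57, adjusted p = 0.0169). Of 15 MAP kinase kinase kinases, 2 rose with the block in both genotypes, Map3k8 and Map3k14. Map3k8 (Tpl2) couples TLR4 to ERK. It went from 17.7, 12.2 and 6.25 to 30.3, 38.4 and 47.1 CPM in CD18fl/fl BMDCs (1.77 ± 0.43, adjusted p = 0.0474).
Of 10 MAP kinase-activated kinases, Rps6ka1 and Mknk1, both effectors of ERK, fell in CD18fl/fl with and without the block. With the block, 1 rose (Mknk2) and 4 fell in CD18CD11c cKO BMDCs. Of 13 further inhibitors of MAP kinase signaling tested, 2 fell in both genotypes (Ptpn7 and Pea15a) and 1 rose in CD18CD11c cKO BMDCs (Rasa2) with the block. The tyrosine phosphatase Ptpn7, which acts on ERK and p38, fell from 29.6, 28.9 and 24.4 to 5.46, 3.91 and 9.81 CPM in CD18fl/fl BMDCs (-2.10 and adjusted p = 0.036 by edgeR without the block). Between genotypes in unstimulated BMDCs, the block gave 5 of 15 MAP kinase kinase kinases, 2 of 7 MAP kinases, 1 of 7 MAP kinase kinases and 2 of 10 MAP kinase-activated kinases lower in CD18CD11c cKO, and 0 of each higher. Mapkapk2, the kinase that inactivates Zfp36, was among these MAP kinase-activated kinases. Over all genes, the block called 8.16% of 12876 lower in this comparison.

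Of 9 transcripts known to depend on ERK, 5 fell in CD18fl/fl and 7 in CD18CD11c cKO BMDCs with the block and 0 rose, and their median log2 fold change was -3.30 and -2.44. Over all genes, 6.43% and 9.93% were called lower with the block. Without it, 1 of the 9 transcripts fell in each genotype, Fos. This immediate early gene measured 195, 285 and 100 CPM without and 29.3, 30.01 and 44.0 CPM with LPS in CD18fl/fl, and 50.3, 85.8 and 32.9 CPM without and 11.4, 18.8 and 11.2 CPM with LPS in CD18CD11c cKO BMDCs. Fos was thus lower after LPS and, within each state, lower in all CD18CD11c cKO libraries than in all CD18fl/fl libraries. With the block, the difference between genotypes was -1.71 ± 0.15 in unstimulated BMDCs (adjusted p = 0.00298 by edgeR, 0.18 without the block). Egr3 (-3.51 ± 0.60, adjusted p = 0.0197) and Ccnd1 (-2.30 ± 0.30, adjusted p = 0.0097) fell with LPS in CD18fl/fl BMDCs with the block.

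Partners of the Zfp36 family were examined likewise. Among 18 genes of deadenylation, 0 were called in either genotype with or without the block. Of 10 genes of decapping and 5′ decay, 1 rose in CD18fl/fl (Dcp1a) and 3 in CD18CD11c cKO BMDCs (Dcp1a, Dcp2 and Pnrc1), with the block. Of the other proteins that bind AU-rich or stem-loop elements, 0 of 16 were called in CD18fl/fl, whereas 1 of 17 fell in CD18CD11c cKO BMDCs (Ybx1). Between genotypes in unstimulated BMDCs, 5 of 18 deadenylation genes were called lower and 1 higher in CD18CD11c cKO with the block, after LPS 1 lower. Over all genes, 8.16% were called lower and 1555 of 12876 higher without LPS, and 3.16% lower with it.
Among 19 transcripts known as targets of Zfp36, 17 were tested in CD18fl/fl and 16 in CD18CD11c cKO BMDCs. Of these, 8 rose and 1 fell in CD18fl/fl, and 10 rose and 2 fell in CD18CD11c cKO BMDCs, with the block, compared with 3 and 6 that rose and 0 that fell without it. Their median log2 fold change was 1.96 and 2.59 with the block. Over all genes, the block called 6.33% and 10.2% higher and 6.43% and 9.93% lower in CD18fl/fl and CD18CD11c cKO BMDCs. Il6 went from 2.25, 2.08 and 11.2 to 302, 366 and 360 CPM in CD18fl/fl, and from 6.59, 5.74 and 6.36 to 389, 489.5 and 815 CPM in CD18CD11c cKO BMDCs. It was thus higher in every LPS-treated library, by 6.52 ± 0.60 and 6.39 ± 0.31 on the log2 scale (adjusted p = 0.005 and 0.000587 by edgeR with the block). Ptgs2, the inducible cyclooxygenase, rose by 6.92 ± 0.76 (adjusted p = 0.00657) and 7.02 ± 0.62 (adjusted p = 0.00179). Cxcl1, a neutrophil attractant, was called in CD18CD11c cKO (4.98 ± 0.62, adjusted p = 0.00356), but not in CD18fl/fl BMDCs (3.61 ± 0.95, adjusted p = 0.058), where replicate 3 had 407 CPM and the others 21.5 and 31.8 CPM after LPS. Between genotypes, 3 targets were higher and 1 lower in unstimulated CD18CD11c cKO BMDCs (of 15) and 0 higher and 2 lower after LPS (of 17), with the block, next to the lower Zfp36 level in both states. Over all genes, the block called 1555 of 12876 higher and 8.16% lower without LPS. After LPS it called 869 of 12441 higher and 3.16% lower.

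Reads of the members were nearly all assigned to 1 position, at least 98.5% in each gene. Zfp36 lies on chr7 (28076209-28079678), Zfp36l1 on chr12 (80154528-80159787) and Zfp36l2 on chr17 (84491359-84495375) of GRCm39, all on the minus strand. Library preparation did not mark the strand, so reads of overlapping genes cannot be told apart. Of the 10 members, 8 overlap another annotated gene, all but Dusp4 and Zfp36l1. The overlapping gene is protein-coding for Dusp1 (chr17:26724564-26781102, minus strand), whose annotated span contains part of Ergic1 (605 to 1816 reads) on the opposite strand, and for Dusp10 (chr1:183745499-183807833, plus strand) with 1700056E22Rik (0 to 29 reads). Intronic reads made up a median of 3.56% of the reads of Dusp1, 1.82% of Dusp5 and 0.0990% of Zfp36 over the 12 libraries. Their highest values in a library were 11.02%, 10.2% and 0.138%. Among the scarce members, Dusp2 reached 23.01% and Dusp10 47.6%, the latter with 10 of 21 reads in LPS-treated CD18CD11c cKO replicate 3.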

How the data were processed

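Per the labels, poly(A)-selected mRNA of MHCII+ BMDCs was sequenced as single-end reads of 59 bases after 15 PCR cycles, in 12 libraries (3 in each of 4 groups). The authors mapped and counted reads in CLC Genomics Workbench 22.0 against GRCm39 according to the study's methods, whereas the submitters' processing notes name GRCm38. Coordinates in the tables are those of GRCm39. The annotation release is not given in the sources used here. The authors deposited raw counts per gene (total gene reads, unique gene reads and others) with no normalization, and gene positions, exon length and similar values in further columns. RPKM values were not used.

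Total gene reads were tested by edgeR 4.0.16 in R 4.3.3 (quasi-likelihood test, TMM, minimum count 10, Benjamini-Hochberg adjustment over all genes tested, threshold 0.05), on the 6 libraries of each comparison and on all 12 for the interaction. The SE is the log2 fold change divided by the square root of F. Group and replicate number came from the titles. The numbers occur in each group, and all 12 correlations of same-numbered deviations exceeded 0.1. Those of replicate 1 with 2 of different groups (0.154 to 0.334) did so too. This limit therefore does not show that same-numbered libraries are pairs, and the sources do not state it. For this reason, fits with the replicate number as a block stand beside those without. Among 66 pairs of libraries, none was a copy (lowest chi-squared per degree of freedom 46.6). Shares were compared by exact permutation tests (scipy 1.17.1). Fits by edgeR and DESeq2, with and without the block, were tried on simulated counts for some of the comparisons. Same-numbered libraries shared a deviation there by design, so this does not show that the real ones are pairs. The permutation tests were not simulated.

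Alternatives were DESeq2 1.42.0, RLE size factors, library size alone, other count filters, unique gene reads, the block with and without an offset for exon length (lowess, span 0.3), all 12 libraries and leaving out each library. Replicates 1 and 2 alone, and library size or DESeq2 with the block, were added after the data had been seen. The members and the 20 gene lists (2 of members, 12 of the pathway and 6 of markers) were chosen with earlier results of these data known. All members were named, and of each pathway list up to 3 genes with the smallest adjusted p in either LPS response without the block, Dusp7 to Dusp9, the 2 genes nearest in pattern and Itgb2. Other genes named as called members of a list were chosen after their values had been seen. 3′ UTRs were taken from GENCODE on GRCm39 and promoters from RefSeq on GRCm38.p6. No coordinates were converted. The result of 1 gene of a pathway list is not reported here.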

Additional observations from a re-analysis of the deposited data

How the results depend on the processing

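Counts of called members and genes depended most on how replicates were treated, whereas RLE size factors, a minimum count of 50 and unique gene reads moved no called count by more than 1.5 times. In CD18fl/fl BMDCs, 1 member and 496 genes were called for LPS by edgeR without the block. DESeq2 gave 5 members and 1794 genes, the block 5 and 1627, the block with a length offset 4 and 1720, and replicates 1 and 2 alone 9 and 6140. Library size with the block gave 2 and 1621, DESeq2 with the block 8 and 3131, and all 12 libraries 1068 genes. In CD18CD11c cKO BMDCs, 0 members and 506 genes were called for LPS by edgeR without the block, where 4 members and 2685 genes had an unadjusted p under 0.05. DESeq2 gave 3 and 1531, no filter on low counts 2 and 805, the block 5 and 2560, the block with a length offset 5 and 2558, all 12 libraries 2 and 983, replicates 1 and 2 alone 6 and 2049, library size with the block 5 and 2748, and DESeq2 with the block 6 and 3377.

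Between genotypes without LPS, 0 members and 0 genes rose to 1 and 538 with DESeq2, 4 and 2606 with the block, 3 and 1482 with the block and a length offset, 3 and 1383 with replicates 1 and 2 alone, 7 and 4583 with library size and the block, 5 and 3036 with DESeq2 and the block, and 0 and 19 with all 12 libraries. After LPS, 0 and 0 rose to 2 and 1262 with the block, 2 and 990 with a length offset added, 3 and 2642 with library size and the block, and 3 and 1869 with DESeq2 and the block. Genes called there were 150 with DESeq2, 1 without a filter, 45 with all 12 libraries and 523 with replicates 1 and 2 alone. For the interaction, DESeq2 called 1 gene without and 130 genes with the block. The cause of these shifts was not tested.

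Directions turned for Dusp2, the least counted member, and for few others. In CD18CD11c cKO BMDCs the LPS response of Dusp2 was -0.49 without the block, but 0.42 with the block, 0.40 with a length offset added, 0.21 with library size and the block and 0.56 with DESeq2 and the block. Its difference between genotypes without LPS was 0.19, but -0.24 with library size alone, -0.46 with the block, -0.78 with a length offset added, -0.88 with library size and the block and -0.61 with DESeq2 and the block. Dusp16 turned to 0.12 in the same comparison with the block and a length offset. After LPS, Dusp4 turned to 0.09 and Dusp6 to 0.40 between genotypes in replicates 1 and 2 alone.

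Leaving out 1 library at a time without the block gave 0 to 6 members and 0 to 3268 genes for LPS in CD18fl/fl, 0 to 4 members and 0 to 1033 genes in CD18CD11c cKO BMDCs, and between genotypes after LPS 0 to 1 genes. The highest counts for LPS came without replicate 3 of the LPS-treated group, and the 1 gene between genotypes without LPS-treated CD18fl/fl replicate 2. Log2 fold changes turned sign for LPS in CD18CD11c cKO BMDCs in Dusp2 (-1.08 to 0.62). Between genotypes they turned without LPS in Dusp1 (-0.85 to 0.03), Dusp2 (-0.91 to 0.79) and Dusp10 (-1.04 to 0.02), and with LPS in Dusp4 (-0.55 to 0.14), Dusp6 (-1.13 to 0.96), Zfp36l1 (-0.67 to 0.37) and Zfp36l2 (-1.17 to 0.88). For the interaction they turned in Dusp1 (-0.75 to 0.23), Dusp5 (-0.34 to 0.48), Dusp10 (-0.96 to 0.35), Zfp36 (-0.12 to 0.44) and Zfp36l2 (-0.25 to 1.69). Differences in share, in percentage points, turned for LPS in CD18fl/fl in Dusp2 (-0.0329 to 0.381), Dusp4 (-0.348 to 1.40) and Dusp5 (-1.50 to 6.70), and in CD18CD11c cKO BMDCs in Dusp1 (-4.66 to 9.83), Dusp2 (-0.908 to 0.0876) and Dusp10 (-0.0527 to 0.216). Between genotypes shares turned without LPS in Dusp1 (-4.68 to 9.09), Dusp2 (-0.198 to 0.798), Dusp4 (-1.08 to 0.517), Dusp5 (-1.09 to 7.11), Dusp6 (-12.5 to 3.34), Dusp10 (-0.0861 to 0.152) and Dusp16 (-0.227 to 1.66), and with LPS in Dusp1 (-11.04 to 2.34), Dusp4 (-0.488 to 0.924), Dusp6 (-2.18 to 1.56) and Dusp16 (-2.19 to 1.42). Depth limited chiefly Dusp2 and Dusp10, which had at most 115 and 197 reads in a library.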
